A study of Mus musculus with 12 samples.

Results

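The Wnt ligands, their receptors and antagonists were taken as protein-coding genes by their symbol. It begins with Wnt, Fzd, Sfrp, Dkk or Rspo followed directly by a digit, or with *Tcf7*. Also taken were *Lgr4*, *Lgr5*, *Lgr6*, *Axin1*, *Axin2*, *Lef1*, *Lrp5*, *Lrp6*, *Ctnnb1*, *Apc*, *Frzb*, *Wif1*, *Znrf3* and *Rnf43*. The count table held 48 such genes among 25093. They comprised 13 ligands, 12 frizzled receptors and LRP co-receptors, 8 secreted antagonists, 7 genes of the R-spondin axis and 8 cytoplasmic or nuclear components. A further symbol that fits the pattern, *Fzd10os*, is not annotated as protein-coding and was left out.

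Wnt proteins are secreted, lipid-modified ligands that bind frizzled receptors. In the canonical pathway a frizzled acts together with LRP5 or LRP6, the destruction complex built on APC and AXIN is inhibited, and β-catenin (*Ctnnb1*) accumulates and acts with TCF/LEF factors on target genes. SFRP proteins, FRZB and WIF1 bind Wnts outside the cell, DKK proteins act on the LRP co-receptors, and R-spondins with LGR receptors counter the ubiquitin ligases ZNRF3 and RNF43, which remove frizzleds from the membrane. In skeletal muscle, Wnt signalling is known for its roles in the quiescence, self-renewal and differentiation of satellite cells, the resident muscle stem cells.

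RNA was sequenced from satellite cells sorted from hindlimb muscles of 3 to 4 month old mice, as 12 libraries in 4 groups: quiescent (QSCs, from uninjured muscle) and activated (ASCs, 3 days after cardiotoxin) cells of control and *Gli3*-deleted mice. Control mice were *Pax7*-CreERT2/+;*Gli3*+/+;R26R-YFP (*Gli3*+/+ below), and deleted mice were *Pax7*-CreERT2/+;Gli3fl/fl;R26R-YFP (*Gli3*Δ/Δ below). Every animal thus carried the tamoxifen-inducible CreERT2 under control of *Pax7* and the YFP reporter, both genotypes received tamoxifen, and deletion is restricted to cells that expressed *Pax7* at that time. QSCs were sorted as α7-INTEGRIN+ and CD34+ cells negative for CD31, CD45, SCA1 and CD11b, and each QSC library pooled several mice. The sort itself partly activates the cells. Only the 6 QSC libraries could be matched to labels, so the comparison below is between *Gli3*Δ/Δ and *Gli3*+/+ QSCs, with n = 3 libraries per group throughout. It asks whether loss of GLI3, the main transcriptional repressor of Hedgehog signalling, is accompanied by a different level of any Wnt pathway gene.

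Library totals ranged from 39556784 to 65750131 estimated counts. Levels are given as CPM, counts scaled to a common library size with edgeR's TMM factors, and, wherever genes are compared with each other, as CPM per kilobase of exon. *Gli3* itself was at 11.2, 9.71 and 9.75 CPM in the *Gli3*+/+ libraries and 9.54, 10.5 and 6.25 CPM in the *Gli3*Δ/Δ libraries, a log2 difference of −0.22 (SE 0.22, adjusted p = 0.916 from edgeR). Deletion removes only a stretch of *Gli3*, and the counts used here are summed over the whole gene. In the RNA-sequencing of the paper, *Gli3* was reported as significantly lower in *Gli3*Δ/Δ ASCs. For QSCs the paper reports that excision of *Gli3* was verified by RT-qPCR, a measurement apart from the counts used here. Whether counts of the whole gene can show the deletion in QSCs was not tested, so these values do not check the genotype. *Pax7*, the defining satellite cell gene, ranged from 798 to 1160 CPM over the 6 libraries. *Gli3*+/+ replicate 3 stood apart: its correlation with the other control libraries was at most 0.972 (Pearson, log2 CPM of 14696 genes, against 0.984 between the others), and it had the highest *Fosl1* (19.9 CPM, against 0.311 to 3.93 CPM elsewhere) and *Sdc4* (2710 CPM, against 891 to 1400 CPM). Over all genes, 88 (0.351%) passed an adjusted p under 0.05 with a fold change of at least 1.2, 47 higher and 41 lower in *Gli3*Δ/Δ QSCs; among protein-coding genes the share was 0.265%.

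Promoter windows of the antagonist genes *Sfrp2* and *Frzb* are shown because these genes had the smallest p-values of the 48, in opposite directions. Each is the window from 250 bases before to 50 bases after the RefSeq start, on the strand of the gene (GRCm38.p6). The *Sfrp2* window is chr3:83766071-83766370 on the plus strand and the *Frzb* window is chr2:80447347-80447646 on the minus strand. In the GENCODE annotation *Frzb* starts farther upstream, at 80447625, so most of its window lies inside the gene as annotated there. Capitals mark matches on either strand to 3 motifs: GACCACCCA, the GLI consensus; CTTTGA, the TCF/LEF core; and CAGCTG, an E-box bound by myogenic factors.
Sfrp2: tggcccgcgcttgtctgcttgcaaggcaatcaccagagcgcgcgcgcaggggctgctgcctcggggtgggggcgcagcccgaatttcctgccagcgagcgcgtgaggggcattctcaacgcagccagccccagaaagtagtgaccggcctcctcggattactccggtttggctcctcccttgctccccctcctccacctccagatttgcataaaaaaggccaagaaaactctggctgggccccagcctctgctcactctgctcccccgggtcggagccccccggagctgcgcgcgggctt
Frzb: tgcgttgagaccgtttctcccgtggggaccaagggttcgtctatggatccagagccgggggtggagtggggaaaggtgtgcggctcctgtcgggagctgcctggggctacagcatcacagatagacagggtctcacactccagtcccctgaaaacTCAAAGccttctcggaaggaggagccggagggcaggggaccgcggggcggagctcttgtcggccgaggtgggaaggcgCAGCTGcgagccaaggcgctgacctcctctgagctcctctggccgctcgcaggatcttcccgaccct
The *Sfrp2* window held none of the 3 motifs. The *Frzb* window held the TCF/LEF core at base 156, on the opposite strand, and the E-box at base 234. Of the 32851 mouse promoter windows of this length, 0.253% held the GLI consensus, 16.0% the TCF/LEF core and 16.3% the E-box. RefSeq windows were at hand for 31 of the 48 genes (41 windows): 0 held the GLI consensus, 5 the TCF/LEF core and 6 the E-box. These matches describe letters in a window and are not measured binding sites.

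By the edgeR test, *Gli3*Δ/Δ QSCs differed from *Gli3*+/+ QSCs in 1 of the 48 genes, *Sfrp2*, which was higher. The share called, 2.08%, stands against 0.351% of all genes tested, and rests on this 1 gene. Groups did not overlap for 5 of the 48 (10.4%), against 13.0% of all genes: *Sfrp2*, *Sfrp5* and *Lrp5* were higher in every *Gli3*Δ/Δ library, and *Fzd6* and *Frzb* were lower. An unadjusted p under 0.05 was reached by 4 of the 48 (8.33%), namely *Sfrp2*, *Frzb*, *Wnt9a* and *Lrp5*, against 7.11% of all genes. The median log2 difference was −0.11 over the 48 genes and −0.03 over all genes. The shares of separated genes and of small unadjusted p-values were thus close to those of all genes.

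**Figure D1:**
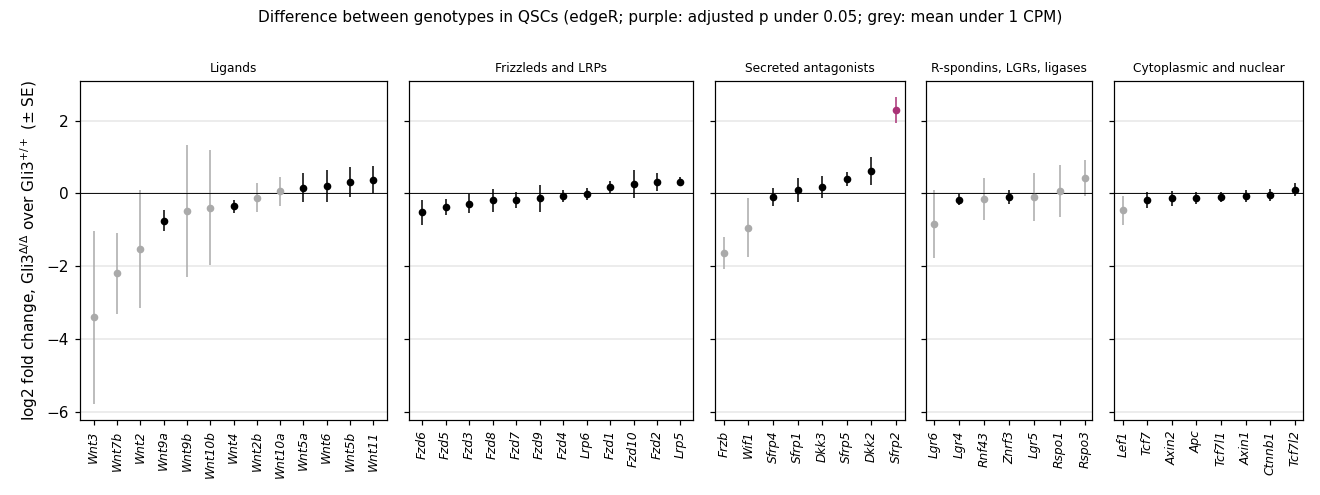
Difference between *Gli3*Δ/Δ and *Gli3*+/+ QSCs for all 48 genes, as log2 fold change from edgeR (y axis, error bars are 1 SE, 3 libraries per group), by role (panels). *Sfrp2* at 2.30 (purple) is the 1 gene past the threshold; genes with a mean under 1 CPM (grey) carry the widest errors, up to an SE of 2.39 for *Wnt3*.

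Among the secreted antagonists, *Sfrp2* (ENSMUSG00000027996.13; GRCm38 chromosome 3, 83766321 to 83774316, plus strand), which encodes a frizzled-related protein that binds Wnts, rose in *Gli3*Δ/Δ QSCs. It was counted at 1.49, 2.30 and 2.62 CPM in the *Gli3*+/+ libraries (60, 155 and 113 counts), but at 10.2, 15.3 and 6.10 CPM in the *Gli3*Δ/Δ libraries (533, 1024 and 310 counts). Every *Gli3*Δ/Δ library was above every *Gli3*+/+ library, with the widest spread among the *Gli3*Δ/Δ libraries. The means were 2.14 ± 0.583 and 10.5 ± 4.60 CPM (SD, n = 3 each), a ratio of 4.92, and the log2 difference was 2.30 (SE 0.36, Benjamini-Hochberg adjusted p = 0.0437 by the quasi-likelihood test of edgeR). DESeq2 gave an adjusted p of 6.17e-08 and limma-voom one of 0.104. The call was also lost after the filter of filterByExpr (adjusted p = 0.0521 from edgeR) and with at least 10 counts in every library (adjusted p = 0.0571 from edgeR). It was lost on leaving out any 1 of *Gli3*+/+ replicates 1, 2 and 3 and *Gli3*Δ/Δ replicates 1 and 2 (adjusted p = 0.102, 0.114, 0.0678, 0.119 and 0.0908 from edgeR), while the log2 difference stayed between 1.93 and 2.57 over all 6 omissions. A bulk library cannot tell more cells that express a gene from more RNA per cell. An antisense gene, *Gm26771*, overlaps *Sfrp2* on the other strand. The library kit keeps the strand, but whether reads of *Gm26771* enter the *Sfrp2* counts was not tested.

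*Frzb* (ENSMUSG00000027004.3; chromosome 2, 80411970 to 80447625, minus strand), another frizzled-related Wnt-binding protein, went the other way at a low level. It is described although its mean lies under 1 CPM, and was chosen after its values were seen. The *Gli3*+/+ libraries held 0.621, 1.04 and 0.627 CPM (25, 70 and 27 counts) and the *Gli3*Δ/Δ libraries 0.191, 0.283 and 0.256 CPM (10, 19 and 13 counts). The groups did not overlap. The mean was 3.13 times higher in *Gli3*+/+ QSCs, with a log2 difference of −1.64 (SE 0.44), but the adjusted p of 0.325 from edgeR did not pass.

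The related gene *Sfrp5*, also an extracellular Wnt inhibitor, was at 7.20, 7.56 and 8.21 CPM in the *Gli3*+/+ libraries and 8.47, 9.91 and 11.8 CPM in the *Gli3*Δ/Δ libraries. These groups were next to each other without overlap, and the log2 difference of 0.39 (SE 0.19, adjusted p = 0.733 from edgeR) did not pass. *Sfrp4* was at 4.27, 7.37 and 5.66 CPM in controls and at 5.15, 4.52 and 6.41 CPM in the *Gli3*Δ/Δ libraries. Its groups overlapped throughout. The other antagonists, *Dkk3*, *Sfrp1*, *Dkk2* and *Wif1*, lay between 0.0590 and 4.22 CPM in the 6 libraries, with log2 differences from −0.94 (*Wif1*, SE 0.80) to 0.61 (*Dkk2*, SE 0.39).

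**Figure D2:**
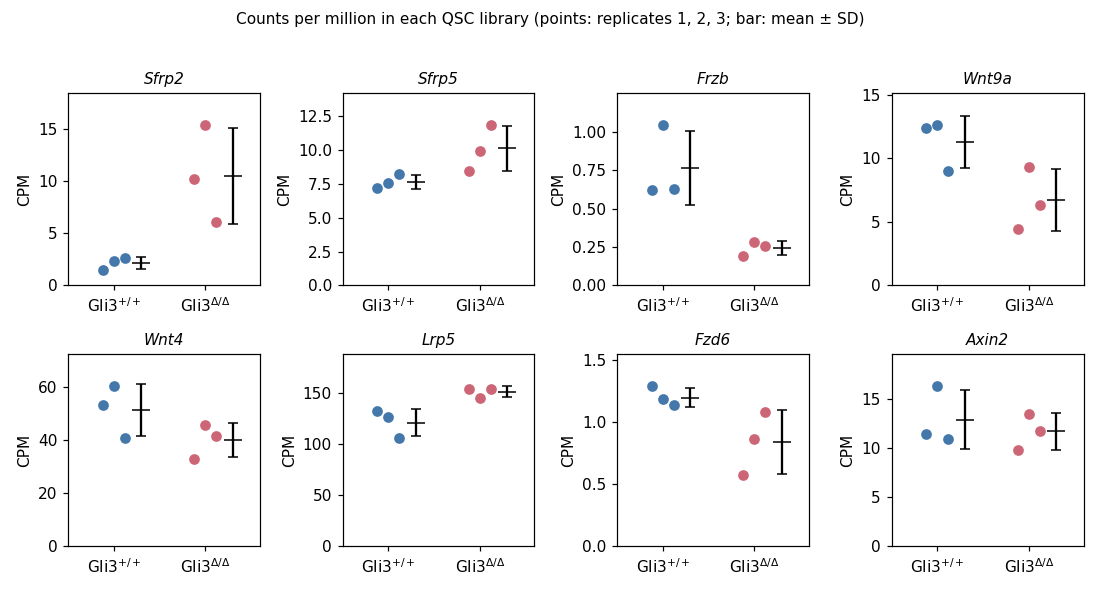
CPM (y axis, from 0) of 8 genes in each of the 6 QSC libraries (points are replicates 1, 2 and 3 from left to right; bars are mean ± SD of 3 libraries). The groups are apart for *Sfrp2*, *Sfrp5*, *Frzb*, *Lrp5* and *Fzd6*, and overlap for *Wnt9a*, *Wnt4* and *Axin2*.

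The make-up of the antagonist family differed with *Sfrp2*. Of the summed CPM per kilobase of the 8 antagonist genes, *Sfrp2* made up 9.65%, 11.7% and 13.1% in the *Gli3*+/+ libraries and 37.6%, 44.9% and 22.2% in the *Gli3*Δ/Δ libraries. *Sfrp5* was the largest part in every *Gli3*+/+ library, at 43.7% to 52.9%. In *Gli3*Δ/Δ replicates 1 and 2 *Sfrp2* stood above *Sfrp5* (35.5% and 33.0%), and in replicate 3 *Sfrp5* remained the larger at 48.8%. The family sum was 7.17, 9.11 and 9.33 CPM per kilobase in *Gli3*+/+ QSCs and 12.6, 15.8 and 12.7 CPM per kilobase in *Gli3*Δ/Δ QSCs. Without *Sfrp2* the sum overlapped between the genotypes, at 6.48 to 8.11 and 7.84 to 9.90 CPM per kilobase (no test was made of these sums, since they contain a gene already described).

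**Figure D3:**
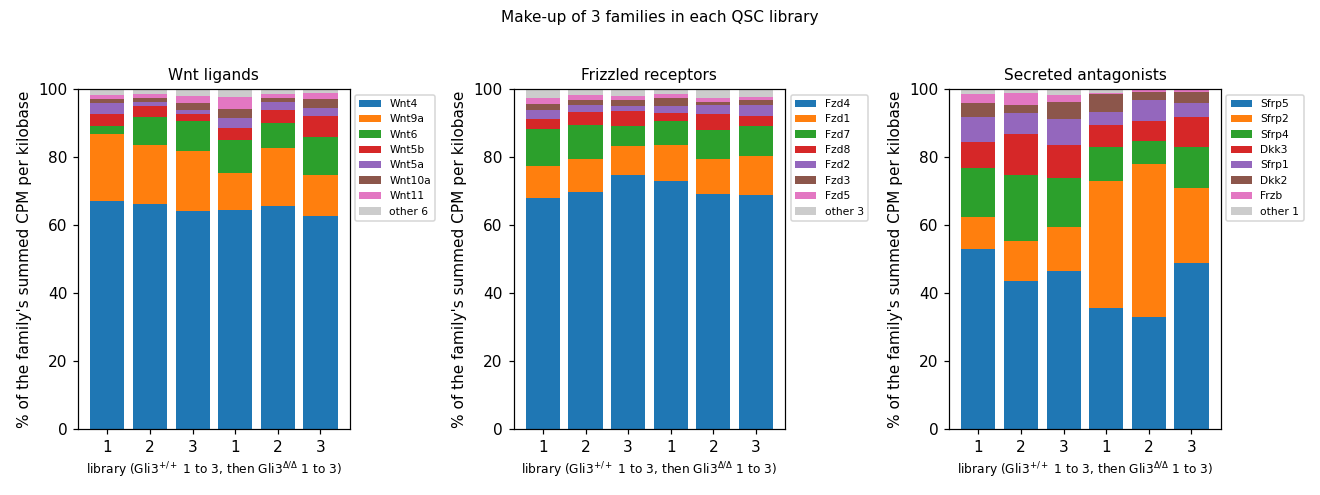
Share of each gene in its family's summed CPM per kilobase (y axis, percent) in the 6 QSC libraries (x axis), for the ligands, the frizzleds and the secreted antagonists. *Wnt4* (62.7% to 67.2%) and *Fzd4* (68.1% to 74.9%) take the largest share in every library, while *Sfrp2* takes 9.65% to 13.1% of the antagonists in *Gli3*+/+ and 22.2% to 44.9% in *Gli3*Δ/Δ libraries.

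Other cells of muscle also express secreted Wnt antagonists, so markers of those cells are given here, with the caution that their part in the results on *Sfrp2* and *Frzb* was not tested. Of 9 fibro-adipogenic markers 0 were called by edgeR or DESeq2, 0 reached an unadjusted p under 0.05 and 0 had groups apart. Their summed level was 2140 to 4050 CPM in *Gli3*+/+ and 3470 to 3650 CPM in *Gli3*Δ/Δ libraries, most of it *Col3a1*. By mean CPM 4 of the 9 were higher and 5 lower in *Gli3*Δ/Δ QSCs, with log2 differences from −0.61 to 0.87 and a median of −0.06. The 4 higher were *Dcn* (0.35, SE 0.16), *Smoc2* (0.37, SE 0.24), *Col3a1* (0.30, SE 0.21) and *Dpp4* (0.87, SE 0.46). *Pdgfra*, the defining receptor of these cells, was at 1.65 to 3.80 CPM (−0.32, SE 0.36) and *Ly6a*, which encodes the SCA1 antigen gated out in the sort, at 4.21 to 8.34 CPM (−0.50, SE 0.24). Of 8 Schwann cell markers 0 were called by edgeR and 2 by DESeq2, while 6 (75.0%) were lower in every *Gli3*Δ/Δ library and 5 (62.5%) reached an unadjusted p under 0.05, against 13.0% with groups apart and 7.11% of all genes. The glial factor *Sox10* was at 4.27, 2.89 and 4.43 CPM in the *Gli3*+/+ libraries and 1.26, 1.82 and 2.26 CPM in the *Gli3*Δ/Δ libraries (log2 difference −1.11, SE 0.30, adjusted p = 0.337 from edgeR). The summed Schwann level, dominated by the widely expressed *Pmp22*, was 251 to 301 CPM and 173 to 263 CPM. *Frzb* was lower as well, but it and the 6 Schwann markers counted above were picked with their direction known. Their shared direction therefore carries no weight, and a link between them was not tested.

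The mural list (8 genes) had 0 genes called by edgeR and 1 by DESeq2. Its sums were 1770 to 2450 CPM in *Gli3*+/+ and 1800 to 2710 CPM in *Gli3*Δ/Δ libraries, mostly *Notch3* at 1330 to 2460 CPM. By mean CPM 3 mural genes were higher and 5 lower in *Gli3*Δ/Δ QSCs. Groups were apart for 2 (25.0%), against 13.0% of all genes. An unadjusted p under 0.05 was reached by 4 (50.0%), against 7.11% of all genes. Of those 4, *Abcc9* was lower in each *Gli3*Δ/Δ library (79.4, 89.6 and 69.4 against 48.9, 50.6 and 58.3 CPM, log2 difference −0.60, adjusted p = 0.242 from edgeR) and *Cspg4* was higher in each (14.0, 15.0 and 15.4 against 15.9, 23.4 and 20.3 CPM, log2 difference 0.42, adjusted p = 0.666 from edgeR). The other 2, *Myh11* (log2 difference −1.50, SE 0.54) and *Rgs5* (−0.92, SE 0.34), had overlapping groups. Endothelial sums were 198 to 278 CPM and 176 to 201 CPM, macrophage sums 12.2 to 30.9 CPM and 11.1 to 18.5 CPM, and myofiber sums 48.4 to 65.0 CPM and 51.9 to 76.4 CPM, each with 0 genes called by edgeR or DESeq2 (1, 0 and 1 with an unadjusted p under 0.05). By mean CPM 8 of 9 endothelial markers were lower in *Gli3*Δ/Δ QSCs (median log2 difference −0.39). Of the macrophage markers 6 of 9 were lower (median −0.32), and of the myofiber markers 3 of 8 (median 0.11). No marker of any list was at 0 in all libraries; the macrophage gene *Itgam*, which encodes CD11b, was at 0 in 1 library. The myogenic markers summed to 4090 to 6580 CPM and 4380 to 4820 CPM, with 0 of 11 called by edgeR and 1 by DESeq2. By mean CPM 4 were higher and 7 lower in *Gli3*Δ/Δ QSCs. Groups were apart for 2 (18.2%, against 13.0% of all genes), both higher, and the same 2 had an unadjusted p under 0.05. The gene called by DESeq2 was *Myog*, the differentiation factor. It was at 4.94, 2.61 and 6.31 CPM in the *Gli3*+/+ libraries and 14.2, 9.67 and 9.05 CPM in the *Gli3*Δ/Δ libraries (adjusted p = 0.297 from edgeR and 0.0171 from DESeq2).

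Among the 13 ligands, *Wnt4* dominated in QSCs; 0 genes were called by edgeR, DESeq2 or limma-voom, and 1 had an unadjusted p under 0.05 (*Wnt9a*). On the scale of CPM per kilobase, *Wnt4* averaged 10.9 ± 2.32 over the 6 libraries (SD, n = 6), *Wnt9a* 2.71 ± 0.969 and *Wnt6* 1.30 ± 0.491. The range of *Wnt4* lay wholly above that of *Wnt9a*, whereas the ranges of *Wnt9a* and *Wnt6* overlapped, as did those of all lower neighbours in the order. *Wnt4* made up between 62.7% and 67.2% of the ligands' summed CPM per kilobase, and *Wnt9a* between 11.0% and 19.7%.

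*Wnt4* (chromosome 4, 137277489 to 137299726), a ligand used in many tissues by both canonical and non-canonical routes, was at 53.4, 60.4 and 41.0 CPM in the *Gli3*+/+ libraries and 33.1, 45.7 and 41.8 CPM in the *Gli3*Δ/Δ libraries. The groups overlapped, at a log2 difference of −0.36 (SE 0.18, adjusted p = 0.774 from edgeR). *Wnt9a* (chromosome 11, 59306928 to 59333552), known for its role in joint formation, was at 12.4, 12.6 and 8.98 CPM in controls and at 4.47, 9.31 and 6.37 CPM in the *Gli3*Δ/Δ libraries. Here only *Gli3*Δ/Δ replicate 2 reached into the control range, just above *Gli3*+/+ replicate 3, and the log2 difference was −0.75 (SE 0.28, adjusted p = 0.591 from edgeR). *Wnt6* was at 1.02, 3.96 and 2.99 CPM in the *Gli3*+/+ libraries and 2.60, 2.70 and 3.89 CPM in the *Gli3*Δ/Δ libraries. The low value of *Gli3*+/+ replicate 1 set its spread, and without that library the sign of the difference turned, from 0.20 to −0.19.

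The summed ligand level was 19.0, 21.7 and 15.2 CPM per kilobase in *Gli3*+/+ and 12.2, 16.6 and 15.9 CPM per kilobase in *Gli3*Δ/Δ libraries, which overlap. The non-canonical ligands *Wnt5a* and *Wnt5b*, and *Wnt11*, lay between 0.795 and 4.44 CPM, with log2 differences of 0.15 (SE 0.40), 0.31 (SE 0.42) and 0.38 (SE 0.36). *Wnt5a* varied most between control libraries of the genes with a mean of at least 1 CPM, from 1.35 to 4.44 CPM (coefficient of variation 59.3%). In the *Gli3*Δ/Δ libraries it ranged only from 2.90 to 3.05 CPM. *Wnt10a* and *Wnt2b* were at 0.472 to 1.04 CPM. *Wnt7b* was at 0.0889 to 0.571 CPM in the *Gli3*+/+ libraries and 0 to 0.0895 CPM in the *Gli3*Δ/Δ libraries, at most 23 counts in any library. *Wnt2*, *Wnt3*, *Wnt9b* and *Wnt10b* averaged under 0.1 CPM, with at most 15 counts in any library, and each was at 0 in at least 1 library; at these counts a difference between genotypes was not detectable.

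**Figure D4:**
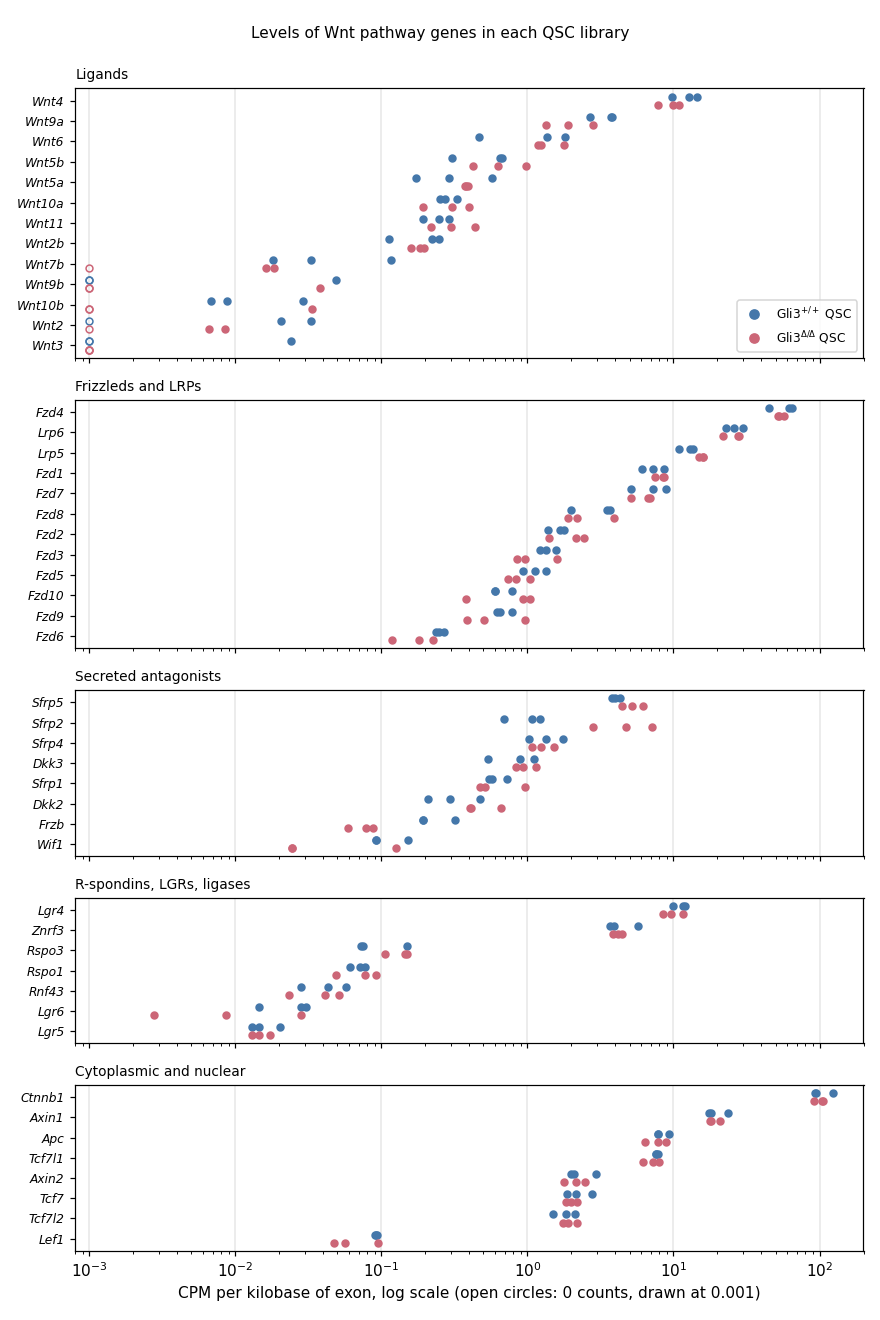
Level of each of the 48 genes in each QSC library, as CPM per kilobase of exon (x axis, log scale), ordered by mean within its role (panels); blue points are *Gli3*+/+ and red points *Gli3*Δ/Δ libraries, and open circles mark 0 counts. *Ctnnb1* (mean 102), *Fzd4* (55.4) and *Lrp6* (26.0) lie at the top. Means under 0.1 belong to *Lgr5*, *Lgr6*, *Rspo1*, *Rnf43*, *Lef1*, *Wif1* and the 5 lowest ligands.

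Of the 12 receptor genes, 12 had a mean of at least 1 CPM, and 0 were called by edgeR, DESeq2 or limma-voom, with 1 at an unadjusted p under 0.05 (*Lrp5*). *Fzd4*, a frizzled that also serves as the receptor for Norrin, was the most abundant at 55.4 ± 7.19 CPM per kilobase (SD, n = 6), followed by the co-receptors *Lrp6* at 26.0 ± 3.09 and *Lrp5* at 14.0 ± 1.92. The ranges of these 3 genes over the libraries did not overlap. *Fzd1* (7.75 ± 1.01) and *Fzd7* (6.65 ± 1.40), a Wnt receptor known on satellite cells, came next with overlapping ranges. *Fzd4* took 68.1% to 74.9% of the summed frizzled level per kilobase, *Fzd1* 8.39% to 11.5% and *Fzd7* 5.97% to 11.0%.

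*Fzd4* was at 301, 417 and 432 CPM in controls and at 355, 383 and 348 CPM in the *Gli3*Δ/Δ libraries, so that the control libraries enclosed the others (log2 difference −0.08, SE 0.16). *Lrp6* was at 354, 408 and 314 CPM and at 381, 298 and 379 CPM, respectively, a log2 difference of −0.02 (SE 0.16). *Lrp5* (chromosome 19, 3584828 to 3686564) was at 132, 126 and 106 CPM in the *Gli3*+/+ libraries and 154, 145 and 154 CPM in the *Gli3*Δ/Δ libraries. The *Lrp5* groups were apart, but the log2 difference of 0.32 (SE 0.13) had an adjusted p of 0.671 from edgeR. Within the co-receptor pair, *Lrp5* made up 30.2% to 34.3% of the summed level per kilobase in *Gli3*+/+ and 36.2% to 40.5% in *Gli3*Δ/Δ libraries.

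*Fzd6*, usually linked to planar polarity, had the lowest level per kilobase of the receptors. It was at 1.29, 1.19 and 1.14 CPM in controls and at 0.572, 0.865 and 1.08 CPM in the *Gli3*Δ/Δ libraries, apart by a small margin (log2 difference −0.52, SE 0.35, adjusted p = 0.866 from edgeR). The frizzleds *Fzd1*, *Fzd2*, *Fzd3*, *Fzd5*, *Fzd7*, *Fzd8*, *Fzd9* and *Fzd10* ranged from 0.878 CPM (*Fzd9*) to 40.0 CPM (*Fzd7*), with overlapping groups and log2 differences from −0.38 (*Fzd5*, SE 0.22) to 0.31 (*Fzd2*, SE 0.24). The frizzled sum was 65.8 to 88.9 CPM per kilobase in *Gli3*+/+ and 72.3 to 82.3 CPM per kilobase in *Gli3*Δ/Δ libraries.

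In the R-spondin axis the receptor *Lgr4* and the ligase *Znrf3* accounted for nearly all of the signal; of its 7 genes 0 were called by edgeR, DESeq2 or limma-voom and 0 had an unadjusted p under 0.05. *Lgr4* was at 69.8, 68.5 and 58.6 CPM in controls and at 50.0, 68.1 and 56.6 CPM in the *Gli3*Δ/Δ libraries. *Znrf3*, itself a Wnt target, was at 31.1, 29.2 and 45.1 CPM and at 35.1, 33.0 and 30.3 CPM, respectively, with the highest value in *Gli3*+/+ replicate 3. Neither separated the genotypes (log2 differences −0.17, SE 0.15, and −0.10, SE 0.18). The R-spondin gene *Rspo3* had 9 to 31 counts per library (0.223, 0.459 and 0.232 CPM in the *Gli3*+/+ and 0.324, 0.463 and 0.452 CPM in the *Gli3*Δ/Δ libraries), and *Rspo1*, *Rnf43*, *Lgr5* and *Lgr6* had at most 19. Among the 3 LGR receptors, *Lgr4* was thus at 10.5 ± 1.37 CPM per kilobase (SD, n = 6), against 0.0154 ± 0.00286 for *Lgr5* and 0.0188 ± 0.0118 for *Lgr6*.

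The cytoplasmic and nuclear components had 0 of 8 genes called by edgeR, DESeq2 or limma-voom, 0 with an unadjusted p under 0.05, and log2 differences from −0.46 (*Lef1*, SE 0.40) to 0.10 (*Tcf7l2*, SE 0.18). *Ctnnb1*, which encodes β-catenin, was at 480, 491 and 645 CPM in the *Gli3*+/+ libraries and 546, 479 and 539 CPM in the *Gli3*Δ/Δ libraries. The scaffold *Axin1* was at 66.9, 69.8 and 91.1 CPM and at 68.8, 67.8 and 79.4 CPM, and *Apc* at 126, 125 and 150 CPM and at 142, 126 and 103 CPM, respectively. All 3 genes were highest in *Gli3*+/+ replicate 3, and without that library the signs of the small *Ctnnb1* and *Axin1* differences turned. *Axin2*, a widely used readout of canonical Wnt signalling that was chosen after its values were seen, was at 11.4, 16.3 and 10.9 CPM in the *Gli3*+/+ and 9.77, 13.5 and 11.8 CPM in the *Gli3*Δ/Δ libraries, a log2 difference of −0.14 (SE 0.21, adjusted p = 0.949 from edgeR). A difference of this gene was therefore not detectable beyond the spread of the libraries.

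Of the 4 TCF/LEF factors, *Tcf7l1*, generally a repressor in the absence of β-catenin, was the most abundant in QSCs. It made up 59.3% to 66.5% of their summed CPM per kilobase, against 15.8% to 23.2% for *Tcf7*, 12.6% to 20.9% for *Tcf7l2* and 0.432% to 0.916% for *Lef1*. *Tcf7* and *Tcf7l2* overlapped in range, and *Tcf7l1* and *Lef1* lay apart from them. The order was the same in both genotypes for *Tcf7l1* at the top and *Lef1* at the bottom.

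The other genes of the pathway, taken from 6 lists, had 0 genes called in either direction by edgeR, DESeq2 or limma-voom. An unadjusted p under 0.05 was reached by *Trabd2b*, *Ptk7* and *Reck*, each the 1 gene of its list, and by 0 genes of the other 3 lists. For Wnt secretion and ligand processing (9 genes, 1 with groups apart), the smallest p-values were those of *Trabd2b*, a Wnt protease (13.2, 4.46 and 11.6 CPM in the *Gli3*+/+ and 11.4, 35.2 and 16.5 CPM in the *Gli3*Δ/Δ libraries, adjusted p = 0.683 from edgeR), of the glypican *Gpc6* (log2 difference 0.28, SE 0.19) and of *Wls*, the carrier of Wnts to the cell surface (−0.16, SE 0.12). Among 16 non-canonical and planar polarity receptors and their partners, 2 had groups apart (12.5%, against 13.0% of all genes), the co-receptors *Ptk7* (42.2, 38.9 and 38.9 against 48.3, 50.1 and 60.8 CPM, log2 difference 0.41, SE 0.14, adjusted p = 0.512 from edgeR) and *Ryk* (0.24, SE 0.13). *Dact3* came between them by p-value (0.67, SE 0.33).

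For 13 other secreted or membrane Wnt modulators (1 with groups apart, *Reck*), the 3 smallest p-values belonged to *Reck*, a membrane partner of Wnt7 signalling (27.9, 28.9 and 28.1 against 33.2, 42.8 and 35.0 CPM, log2 difference 0.39, SE 0.14, adjusted p = 0.586 from edgeR), the DKK receptor *Kremen1* (−0.34, SE 0.19) and the tetraspanin *Tspan12* (0.43, SE 0.28). In the signalosome and destruction complex (22 genes, 0 with groups apart) these were the casein kinase *Csnk1g1* (−0.25, SE 0.14), the ubiquitin ligase subunit *Btrc* (0.14, SE 0.15) and the tankyrase *Tnks* (−0.14, SE 0.15). Among 15 nuclear β-catenin cofactors, also with 0 groups apart, they were *Sox17* (−0.66, SE 0.31), *Ep300* (−0.19, SE 0.14) and *Pygo1* (0.21, SE 0.21). The 18 β-catenin target genes split evenly, 9 higher and 9 lower by their mean CPM (1 with groups apart, *Bambi*), with a median log2 difference of −0.02. The smallest p-values there were those of *Bambi* (21.4, 18.7 and 18.8 against 18.2, 14.9 and 10.6 CPM, −0.43, SE 0.21, adjusted p = 0.734 from edgeR), *Twist1* (−1.30, SE 0.65) and *Nrcam* (−0.75, SE 0.39). The list medians lay between −0.04 and 0.04, beside −0.03 over all genes.

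A mean signal per gene was deposited with identical values in the 4 comparison tables. From its column name it is read here as the authors' mean of normalized counts over the libraries of the study. This reading was not checked, since the count columns that match no label were not used. For 12 of the 48 genes (25%) this mean was above the highest count in any QSC library, as it was for 22.0% of all genes. It was 20.5 times the highest QSC count for *Wnt7b* (471 against 23), 10.1 times for *Wnt10a* (504 against 50), 7.37 times for *Lgr6* (95.8 against 13), 7.36 times for *Lgr5* (73.6 against 10) and 4.25 times for *Wnt10b* (25.5 against 6). The other 7 genes, *Tcf7*, *Lef1*, *Sfrp1*, *Fzd6*, *Wnt3*, *Wnt2* and *Fzd3*, were at 1.02 to 1.82 times. For *Sfrp2* the mean was 424, under the highest QSC count of 1024. QSC counts are not scaled for library size here, and totals of the QSC libraries differ by less than the ratios of the first 5 genes. These pooled means carry no replicate error, and which libraries hold the counts was not analysed here.

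**Figure D5:**
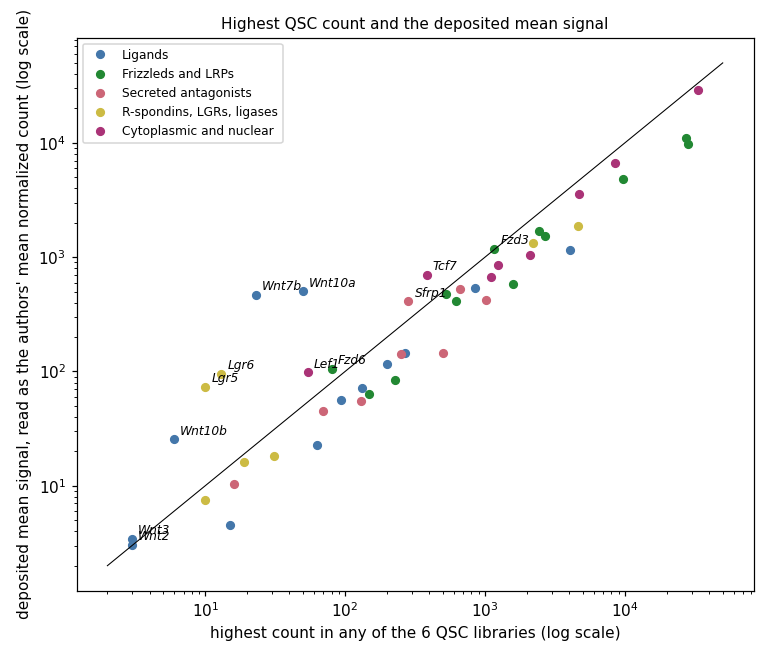
Highest count of each of the 48 genes in any QSC library (x axis, log scale) against the deposited mean signal, read as the authors' mean normalized count (y axis, log scale), coloured by role; the line marks equal values. The 12 named genes lie above the line, with *Wnt7b* and *Wnt10a* farthest from it.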

How the data were processed

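The authors mapped reads of stranded polyA libraries (20 ng RNA) with salmon 0.13.1 to the GENCODE vM19 transcripts (GRCm38), summed them with tximport, filtered genes on a minimum read number, and deposited estimated counts without normalization. Reads that match several transcripts are shared out, and 49.2% of QSC values were not whole; they were rounded. The authors also deposited 4 tables of DESeq2 comparisons, whose fold changes and p-values were not used; the gene type and the mean signal were taken from them. This signal, deposited per gene, is read from its column name as a mean that the authors took of size-factor-scaled counts. Which libraries it covers was not checked. Of the count columns, 6 match no label and were not used, so the planned comparisons of ASCs, of activation and of their interaction with genotype were not run.

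The 6 QSC libraries were fitted with edgeR 4.0.16 (R 4.3.3; TMM, quasi-likelihood test, no further filter, Benjamini-Hochberg over 25093 genes). Calls needed a fold change of 1.2 or more besides an adjusted p below 0.05. As alternatives the fit was repeated without a minimum fold change, with a replicate block, without each library in turn, after filterByExpr or a minimum of 10 counts per library, with DESeq2 size factors, and with DESeq2 1.42.0 or limma 3.58.1 (voom, quality weights) in place of edgeR, and for levels the longest transcript or unscaled totals. Each library pools several mice; p-values measure the spread between these pools. Exact tests of 3 against 3 libraries cannot go below p = 0.1 and were not used. In a simulation of this comparison, 200 of 25093 genes were changed. Of these edgeR recovered 65%, DESeq2 67.5% and limma-voom 48.5%. For 2-fold changes the shares were 51%, 52% and 29%, and for 4-fold changes 79%, 83% and 68%. False calls numbered 13, 28 and 1, respectively. Many 2-fold changes were thus missed, so a gene that was not called is not shown to be unchanged. Positions and exon lengths come from GENCODE vM21 (GRCm38), promoter windows from RefSeq (GRCm38.p6).

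Values in every library are given for called genes, for genes with separated groups and a mean of at least 1 CPM, and for the 3 highest per kilobase in each role; other genes by range. *Frzb* and *Axin2* were added to these after their values were seen. From each pathway list the 3 genes with the smallest p are named. The genes, lists and tests were chosen with earlier results of these data known. Rule symbols without a row in the table were not analysed here. The result of 1 marker gene is not reported here.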

Additional observations from a re-analysis of the deposited data

Results flagged for a closer look

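For 5 genes the deposited mean signal was at least 5 times the highest count in any *Gli3*+/+ QSC library. This limit was chosen after seeing the data. The signal is read as the authors' mean of normalized counts, and the libraries it covers were not checked. The mean was 471 for *Wnt7b*, 504 for *Wnt10a*, 73.6 for *Lgr5*, 95.8 for *Lgr6* and 25.5 for *Wnt10b*, while the highest *Gli3*+/+ QSC counts were 23, 42, 9, 13 and 4, respectively. These are pooled values without an error, and the libraries behind them were not analysed here. Groups of 3 libraries are too small for an outlier test, and no sample was set aside.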

How the results depend on the processing

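The call of *Sfrp2*, the only gene of the 48 called, was lost with limma-voom (0 called), filterByExpr (0), at least 10 counts in every library (0) and the replicate block (0 called, *Sfrp2* adjusted p = 0.0874 from edgeR), and on leaving out 5 of the 6 libraries (0 to 1 called over all omissions). It held with DESeq2, DESeq2 size factors and no minimum fold change, and its log2 difference stayed between 1.93 and 2.57 under all alternatives. Over all genes 88 calls became 384 with DESeq2, 48 with at least 10 counts in every library, where fewer genes are tested, and 58 to 103 on leaving out a library. The 58 calls were those without *Gli3*Δ/Δ replicate 3. Where not said otherwise the cause was not tested.

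Of 233 values of 18 of the 48 genes (the 16 chosen by rule, with *Frzb* and *Axin2*), 207 kept their direction and side of the threshold, 9 lost the call and 17 changed sign. Genes of the pathway and marker lists are not in this count. With limma-voom the log2 difference became 0.03 for *Znrf3*, 0.04 for *Ctnnb1*, 0.02 for *Axin1* and 0.02 for *Fzd4*. On leaving out libraries it ranged from −0.21 to 0.12 for *Znrf3*, −0.12 to 0.10 for *Ctnnb1*, −0.16 to 0.07 for *Axin1*, −0.23 to 0.01 for *Fzd4*, −0.11 to 0.08 for *Lrp6*, −0.25 to 0.08 for *Axin2*, −0.28 to 0.12 for *Sfrp4*, −0.23 to 0.00 for *Apc* and −0.19 to 0.62 for *Wnt6*. None of these was called under any alternative. The number of genes at 1 CPM per kilobase or more was 23 with union exons, with the longest transcript and with unscaled totals.

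Replicate numbers are shared between the groups, but the deviations of same-numbered libraries did not correlate positively (−0.276, −0.0196 and −0.0642 over 14696 genes). These values gave no sign that the numbers pair the samples. Deviations from the mean of so few libraries cannot exclude a pairing. With the block 79 genes were called in all. The alternatives planned for the ASC comparisons were not run.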
